A study of Rattus norvegicus with 8 samples.

Results

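The citrate cycle, the malate-aspartate shuttle and the breakdown of ketone bodies and branched-chain amino acids were examined as 37 genes chosen by symbol, 36 of which were measured among 14217 genes on the array. Fh, which encodes fumarase of the citrate cycle, was not analysed here because no probe set carried its symbol in the annotation used. The other 36 genes were read by 48 probe sets, and of several probe sets of a gene the brightest, by its mean over the 8 arrays, stood for it. RNA was measured in 4 pools of atrial appendage and 4 pools of ventricular free wall from 13 normal male Sprague-Dawley rats of 225 to 275 g, with 10 µg of total RNA per array and 1 array per pool. No animal received a treatment or carried an engineered allele, and that the tissue came from the left side of the heart rests on the study's methods. The tissues were grouped before they were divided into pools and the animals behind each pool are not named, so the spread between pools is not the spread between animals.

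Heart muscle takes nearly all of its energy from mitochondrial oxidation, and the citrate cycle is where the carbon of fatty acids, ketone bodies, glucose and amino acids is finally oxidised. Ketone bodies enter the mitochondria as β-hydroxybutyrate or acetoacetate and leave the pathway as acetyl-CoA, while leucine, isoleucine and valine are first transaminated and decarboxylated and then follow separate routes to acetyl-CoA, acetoacetate or succinyl-CoA. The malate-aspartate shuttle carries reducing equivalents of glycolysis across the inner mitochondrial membrane and shares intermediates with the cycle.

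Transcripts of these pathways were mostly less abundant in the atria. Of the 36 measured members, 25 (69.4%) had a lower atrial level (limma, adjusted p under 0.05), 1 was higher and 10 did not pass the test. Among all 14217 genes, 22.5% were lower and 22.5% were higher by the same rule. The members were bright, with 34 of 36 at a mean log2 signal intensity of at least 8. Of the 2563 genes that bright 26.5% were lower in the atria, against 23 of the 34 members. The median difference of the members, atria minus ventricles, was -0.31 on the log2 scale, which puts the atrial level at 80.7% of the ventricular level, and the median over all genes was -0.04. In 24 of the 36 members every atrial array lay below every ventricular array, which held for 21.9% of all genes. In 2 members, Glud1 and Mdh1, every atrial array lay above, and in the other 10 the arrays overlapped.

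Most of these differences were small. Apart from Bdh1, the 24 lower members differed by -0.19 to -0.70 on the log2 scale, so that the atria held 87.6% to 61.7% of the ventricular level. Bdh1 alone passed the study's own thresholds of a 0.01% false discovery rate and a 1.8 fold change (0.848 on the log2 scale), applied here to the limma fit, while 5.89% of all genes did so. With the fold lowered to 1.5, 4 members (Bdh1, Bckdha, Idh3b and Got1) passed against 8.98% of all genes. When limma's treat tested against a fold of 1.8 itself, 0 members passed at an adjusted p under 0.0001, against 1.12% of all genes. That threshold is stricter than the 0.05 used for calls. The pools of a tissue resembled each other closely for these genes, with a median SD between pools of 0.08 in the atria and 0.05 in the ventricles, against 0.11 in the atria and 0.09 in the ventricles over all genes.

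**Figure D1:**
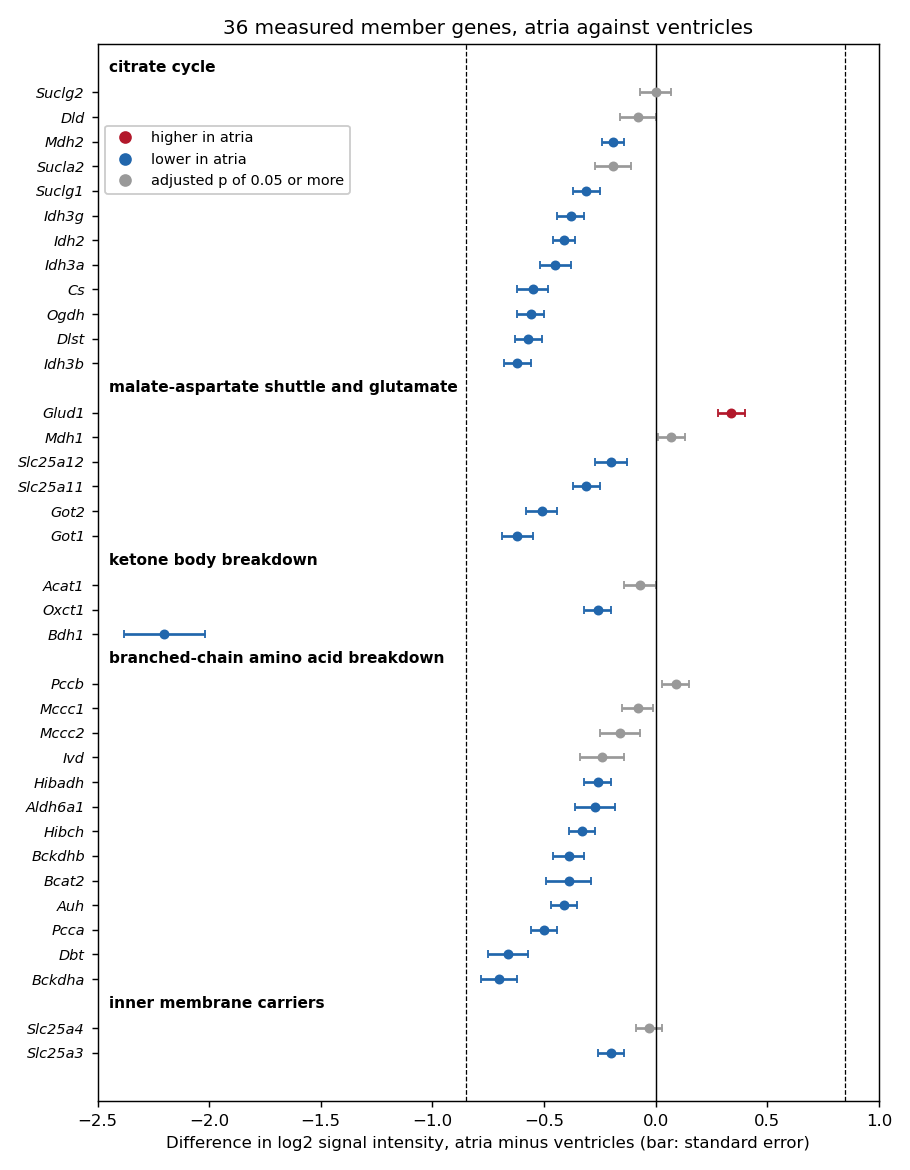
Difference in log2 signal intensity, atria minus ventricles, for the 36 measured genes (rows, grouped by role), with the standard error of the limma fit as bars (4 pools per tissue); red marks genes higher and blue genes lower in the atria (adjusted p under 0.05), grey marks genes that did not pass, and dashed lines mark a 1.8 fold change. Bdh1 at -2.20 lies past the dashed line, the 24 other blue genes lie between -0.19 and -0.70, and Glud1 at 0.34 is the red gene.

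The tissues were checked against marker lists, beside 22.5% of all genes lower and 22.5% higher in the atria. All 5 atrial muscle markers were higher and all 5 ventricular muscle markers were lower in the atria, with median differences of 6.82 and -3.89 on the log2 scale. Heart muscle markers common to both chambers had a median difference of 0.00 over 13 measured genes, of which 4 were higher and 3 lower. Their summed linear signal was 59600 to 65100 in the atria and 61300 to 62800 in the ventricles. Of these 13 genes 8 had a mean log2 signal above 12, as did 4 members, and the highest value of all was 13.77. The study thought that the signal of the atrial marker Nppa was saturated. Whether saturation narrowed the differences of other bright genes was not tested. Markers of other cell types differed between the tissues: 5 of 6 mesothelial markers (summed signal 1070 to 2020 in the atria and 173 to 198 in the ventricles), 5 of 8 adipocyte markers (4440 to 8470 and 6020 to 6510) and 7 of 8 fibroblast markers (15300 to 17400 and 12200 to 13900) were higher in the atria. All 8 pericyte and smooth muscle markers (1310 to 1440 in the atria and 2640 to 2710 in the ventricles) were lower in the atria. Of 7 endothelial markers (2480 to 2640 and 3290 to 3600) 5 were lower and 1, Vwf, was higher (difference 0.93). Wt1 of the mesothelial list (-0.38) and Lpl of the adipocyte list (-0.40) were lower in the atria. The brightest adipocyte markers, Lpl and Fabp4, weighed most in the adipocyte sums, and Fabp4 did not pass (-0.19). Of 8 leukocyte markers 2 were higher and 3 lower, with summed signals of 974 to 1290 in the atria and 1220 to 1480 in the ventricles, and of 6 neuron and glia markers 3 were higher and 1 lower, with sums of 140 to 205 in the atria and 119 to 134 in the ventricles. Lep, Cnn1, Cd3e, Th and Uchl1 had means under 4 in both tissues, near the low end of the array's range. The summed signal of the 36 members was 56600 to 60200 in the atria and 69500 to 72600 in the ventricles. Fewer cells of a type and less RNA per cell cannot be told apart in these pools, and the part of other cell types in the member differences was not tested.

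The ketone body enzymes held the widest difference. Bdh1 encodes β-hydroxybutyrate dehydrogenase, which oxidises β-hydroxybutyrate to acetoacetate inside the mitochondria. Its log2 signal was 5.78, 5.48, 5.88 and 6.01 in atrial pools 1 to 4, against 8.10, 7.42, 8.25 and 8.16 in ventricular pools 1 to 4. The tissues did not overlap, and the pool numbered 2 was the lowest of its tissue on both sides. Bdh1 was 4.58 fold more abundant in the ventricles (difference -2.20 ± 0.18 SE, limma adjusted p = 4.2e-06). The other Bdh1 probe set read 5.55, 4.88, 5.39 and 5.77 in the atria, against 8.10, 7.41, 8.30 and 8.14 in the ventricles, a 6.02 fold difference in the same direction (adjusted p = 5.0e-06).

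The promoter of Bdh1 is shown because this gene carried the widest difference, and the promoters of Glud1, the member that was higher in the atria, and of Got1 are shown beside it because a motif search separated them. Each run holds the 250 bases before the transcription start in RefSeq's GRCr8 assembly, read 5′ to 3′ on the gene's strand, at chr11:82842637-82842886 on the minus strand for Bdh1, chr16:9646319-9646568 on the plus strand for Glud1 and chr1:252329872-252330121 on the minus strand for Got1. Capitals mark a match to the NRF1 core in Glud1 and to the CCAAT box, read on either strand, in Got1, and Bdh1 held no match to any motif searched.
Bdh1: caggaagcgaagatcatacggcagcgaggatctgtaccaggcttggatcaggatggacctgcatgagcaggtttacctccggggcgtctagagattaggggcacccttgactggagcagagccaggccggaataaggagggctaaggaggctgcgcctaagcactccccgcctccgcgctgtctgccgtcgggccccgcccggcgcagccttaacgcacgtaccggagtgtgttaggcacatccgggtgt
Glud1: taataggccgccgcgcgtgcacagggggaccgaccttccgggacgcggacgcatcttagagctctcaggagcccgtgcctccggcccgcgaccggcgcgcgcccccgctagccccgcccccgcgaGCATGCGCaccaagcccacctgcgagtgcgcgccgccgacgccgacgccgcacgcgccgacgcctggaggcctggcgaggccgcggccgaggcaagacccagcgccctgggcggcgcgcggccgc
Got1: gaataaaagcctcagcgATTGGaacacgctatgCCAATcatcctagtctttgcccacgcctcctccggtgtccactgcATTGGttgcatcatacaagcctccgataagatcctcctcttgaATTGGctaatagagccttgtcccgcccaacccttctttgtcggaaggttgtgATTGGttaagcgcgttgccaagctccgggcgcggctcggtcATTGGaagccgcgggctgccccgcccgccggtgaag

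RefSeq gave a promoter for 34 of the 37 members and none was matched for Idh3a, Bckdha or Mccc2. Motifs were searched on both strands of the 250 bases. The element bound by estrogen-related receptors was searched in a long form, TNAAGGTCA, and in a short form, AAGGTCA, which lies within the long form. Neither was found in any of the 34 member promoters, while 1.04% of all 33469 promoters held the long form and 3.99% held the short form. The NRF1 core, GCATGCGC, was found in 2 of 34 (Glud1 and Pccb), against 2.2% of all promoters. CCAAT was found in 19 of 34 (55.9%), against 34% of all promoters, and Got1 held 6 matches to it. It was also found in members that did not pass, such as Dld and Mccc1, and not in some lower members, such as Auh and Oxct1. Pccb, with the NRF1 core, did not pass either, and whether matches go with the calls was not tested. The GC content of these windows was 62.8% in Bdh1, 78.8% in Glud1 and 56.8% in Got1. A match is a run of letters and was not tested for binding.

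Oxct1 encodes the transferase that activates acetoacetate to acetoacetyl-CoA, the step that lets tissues outside the liver use ketone bodies. It read 11.34, 11.48, 11.45 and 11.37 in the atria, against 11.67, 11.61, 11.71 and 11.69 in the ventricles. The tissues did not overlap, and the difference of -0.26 ± 0.06 (SE, adjusted p = 0.006) left the atria at 83.6% of the ventricular level. Acat1 encodes the thiolase that splits acetoacetyl-CoA, and its brighter probe set overlapped between tissues (difference -0.07 ± 0.07, adjusted p = 0.48). The dimmer Acat1 probe set read 8.74, 8.98, 9.00 and 8.91 in the atria, against 9.18, 9.29, 9.37 and 9.50 in the ventricles, with a difference of -0.43 and an adjusted p of 0.0026. The call for Acat1 therefore depended on the probe set.

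In the citrate cycle 9 of 12 measured genes were lower in the atria and none was higher, against 22.5% of all genes lower and 22.5% higher. The median difference was -0.39, or 76.1% of the ventricular level. Cs encodes citrate synthase, which joins acetyl-CoA to oxaloacetate at the entry of the cycle. Cs read 11.23, 11.45, 11.42 and 11.38 in the atria, against 11.87, 11.88, 11.89 and 12.02 in the ventricles. The lowest ventricular pool was above the highest atrial pool, and Cs was 1.46 fold more abundant in the ventricles (difference -0.55 ± 0.07 SE, adjusted p = 1.1e-04). The 3 other Cs probe sets were also lower in the atria, by -0.42, -0.57 and -0.35.

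The NAD-dependent isocitrate dehydrogenase has a catalytic subunit, Idh3a, and the partner subunits Idh3b and Idh3g. Idh3b read 10.50, 10.60, 10.57 and 10.69 in the atria, against 11.20, 11.21, 11.19 and 11.27 in the ventricles. Its pools did not overlap and its difference of -0.62 ± 0.06 (SE, adjusted p = 1.9e-05) was the largest of the cycle members measured. Idh3a differed by -0.45 ± 0.07 (adjusted p = 7.3e-04) and Idh3g by -0.38 ± 0.06 (adjusted p = 3.7e-04), with no overlap of the tissues in either gene. Idh2, the NADP-dependent mitochondrial isocitrate dehydrogenase, read 12.17, 12.21, 12.25 and 12.19 in the atria, against 12.59, 12.59, 12.66 and 12.61 in the ventricles. The SD between pools was 0.03 in each tissue, and Idh2 differed by -0.41 ± 0.05 (adjusted p = 1.9e-04).

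The α-ketoglutarate dehydrogenase complex follows isocitrate dehydrogenase in the cycle and is made of the decarboxylase Ogdh, the succinyltransferase Dlst and the flavoprotein Dld. Ogdh read 11.38, 11.31, 11.37 and 11.47 in the atria, against 11.92, 11.91, 11.89 and 12.03 in the ventricles (difference -0.56 ± 0.06 SE, adjusted p = 4.6e-05). Dlst read 10.12, 10.20, 10.13 and 10.22 in the atria, against 10.76, 10.68, 10.75 and 10.75 in the ventricles (difference -0.57 ± 0.06 SE, adjusted p = 2.4e-05). Neither gene overlapped between tissues, and the atria held 68% of the ventricular Ogdh level and 67.5% of the Dlst level. Dld, which the complex shares with the pyruvate and branched-chain dehydrogenases, read 9.95, 10.15, 10.19 and 10.25 in the atria, against 10.22, 10.13, 10.20 and 10.31 in the ventricles. Atrial pool 1 was the lowest of all 8 arrays, the tissues overlapped, and the difference of -0.08 ± 0.08 did not pass (adjusted p = 0.42).

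Succinyl-CoA synthetase pairs the shared subunit Suclg1 with either Sucla2, the ATP-forming partner, or Suclg2, the GTP-forming one. Suclg1 was lower in the atria (difference -0.31 ± 0.06 SE, adjusted p = 0.0029) without overlap. Suclg2 read 9.95, 10.15, 10.04 and 9.85 in the atria, against 10.01, 9.99, 9.95 and 10.04 in the ventricles, and its difference was 0.00 ± 0.07 (adjusted p = 0.98). Sucla2 read 10.39, 10.61, 10.53 and 10.80 in the atria, against 10.79, 10.82, 10.73 and 10.77 in the ventricles. Atrial pool 4 lay among the ventricular pools while the other 3 lay below them. The difference of -0.19 ± 0.08 did not pass (adjusted p = 0.094), and did so without atrial pool 4 (adjusted p = 0.012). Mdh2, the mitochondrial malate dehydrogenase that closes the cycle, read 11.55, 11.58, 11.61 and 11.57 in the atria, against 11.79, 11.76, 11.76 and 11.77 in the ventricles. It was lower in the atria without overlap (difference -0.19 ± 0.05 SE, adjusted p = 0.016). The call was lost without atrial pools 1 and 4 (adjusted p = 0.069), in a fit with fewer arrays. Atrial pools 2 and 3, which that fit kept, lay below every ventricular pool.

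Of the 6 genes of the malate-aspartate shuttle and of glutamate oxidation, 4 were lower in the atria and 1 was higher. Among all genes 22.5% were lower and 22.5% higher. Got1 encodes the cytosolic aspartate aminotransferase, and it read 10.27, 10.30, 10.38 and 10.17 in the atria, against 10.93, 10.81, 10.91 and 10.95 in the ventricles. There was no overlap, and Got1 was 1.53 fold more abundant in the ventricles (difference -0.62 ± 0.07 SE, adjusted p = 3.4e-05). Its mitochondrial counterpart Got2 read 10.80, 10.82, 10.89 and 10.71 in the atria, against 11.30, 11.19, 11.36 and 11.40 in the ventricles. Got2 was 1.42 fold more abundant in the ventricles, again without overlap (difference -0.51 ± 0.07 SE, adjusted p = 1.7e-04), and atrial pool 4 was the lowest array for both aminotransferases.

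The carriers of the shuttle moved less. Slc25a11, which exchanges malate for α-ketoglutarate, differed by -0.31 ± 0.06 (SE, adjusted p = 0.0028) without overlap. Slc25a12, which exchanges aspartate for glutamate, read 8.60, 8.73, 8.87 and 8.64 in the atria, against 8.90, 8.93, 8.83 and 8.99 in the ventricles. Atrial pool 3 lay above ventricular pool 3, and the difference of -0.20 ± 0.07 was at the edge of the threshold (adjusted p = 0.049). That call was lost when any array other than atrial pool 3 was left out, with adjusted p-values of 0.052 to 0.12. Mdh1, the cytosolic malate dehydrogenase, read 12.30, 12.31, 12.36 and 12.41 in the atria, against 12.29, 12.29, 12.26 and 12.28 in the ventricles. Every atrial pool was above every ventricular pool, but by so little that the difference of 0.07 ± 0.06 did not pass (adjusted p = 0.37). The dimmer Mdh1 probe set overlapped between tissues and did not pass either (difference 0.13 ± 0.07, adjusted p = 0.18).

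Glud1 encodes glutamate dehydrogenase, which feeds glutamate into the cycle as α-ketoglutarate. Its brighter probe set read 9.25, 9.31, 9.32 and 9.29 in the atria, against 8.92, 8.91, 9.05 and 8.95 in the ventricles. It was 1.26 fold more abundant in the atria (difference 0.34 ± 0.06 SE, adjusted p = 0.0011), and the tissues did not overlap. The other Glud1 probe set read 8.85, 8.95, 8.94 and 8.79 in the atria, against 8.86, 8.77, 8.85 and 8.95 in the ventricles. Those pools overlapped and the difference was 0.03 ± 0.07 (adjusted p = 0.79), so the single call of a higher member rested on 1 of its 2 probe sets.

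In branched-chain amino acid breakdown 9 of 13 genes were lower in the atria and none was higher, against 22.5% of all genes lower and 22.5% higher. The median difference was -0.33, or 79.5% of the ventricular level. Bcat2 encodes the mitochondrial aminotransferase that starts the pathway outside the liver. It read 8.02, 8.03, 8.08 and 7.61 in the atria, against 8.39, 8.32, 8.25 and 8.34 in the ventricles, and atrial pool 4 stood below the other 3. The difference was -0.39 ± 0.10 (SE, adjusted p = 0.01).

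The branched-chain α-ketoacid dehydrogenase complex commits the carbon skeletons to oxidation, and all 3 of its own subunits measured were lower in the atria. Bckdha, the α subunit of the decarboxylase, read 7.49, 7.70, 7.53 and 7.43 in the atria, against 8.16, 8.39, 8.23 and 8.15 in the ventricles. Without overlap, it was 1.62 fold more abundant in the ventricles (difference -0.70 ± 0.08 SE, adjusted p = 5.8e-05), the largest difference among the members after Bdh1. A dim Bckdha probe set, with means of 3.92 in the atria and 4.42 in the ventricles, overlapped between tissues. It was also lower in the atria (-0.50, adjusted p = 0.018). Dbt, the transacylase core, read 7.70, 7.98, 7.76 and 7.57 in the atria, against 8.49, 8.46, 8.29 and 8.41 in the ventricles. It differed by -0.66 ± 0.09 (adjusted p = 1.9e-04) without overlap, while a dim Dbt probe set with means of 3.24 in the atria and 3.40 in the ventricles did not pass (adjusted p = 0.13). Bckdhb, the β subunit, differed by -0.39 ± 0.07 (adjusted p = 0.0017).

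Genes of the leucine route were divided. Auh, the hydratase that acts on methylglutaconyl-CoA, read 8.31, 8.36, 8.40 and 8.31 in the atria, against 8.80, 8.75, 8.71 and 8.75 in the ventricles (difference -0.41 ± 0.06 SE, adjusted p = 2.2e-04). The 3 other members of this route overlapped between tissues and did not pass. These were Ivd, the isovaleryl-CoA dehydrogenase (-0.24 ± 0.10, adjusted p = 0.07), and the methylcrotonyl-CoA carboxylase subunits Mccc1 (-0.08 ± 0.07, adjusted p = 0.37) and Mccc2 (-0.16 ± 0.09, adjusted p = 0.16).

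On the valine route all 3 members were lower in the atria. Hibch, which releases hydroxyisobutyrate from CoA, differed by -0.33 ± 0.06 (SE, adjusted p = 0.002), and Hibadh, which oxidises it, by -0.26 ± 0.06 (adjusted p = 0.0055). Aldh6a1, the methylmalonate semialdehyde dehydrogenase, read 10.12, 10.24, 10.23 and 9.88 in the atria, against 10.44, 10.31, 10.31 and 10.49 in the ventricles. It differed by -0.27 ± 0.09 (adjusted p = 0.032) without overlap, but its other probe set overlapped and did not pass (-0.16, adjusted p = 0.17). The Aldh6a1 call was also lost without atrial pool 1 (adjusted p = 0.059), atrial pool 4 (0.05), ventricular pool 1 (0.078) or ventricular pool 4 (0.083).

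Propionyl-CoA carboxylase, which takes the carbon of isoleucine and valine towards succinyl-CoA, is built from Pcca, the biotin-carrying α subunit, and Pccb, the β subunit. Pcca read 8.84, 9.00, 8.94 and 8.88 in the atria, against 9.46, 9.45, 9.36 and 9.40 in the ventricles. It was 1.42 fold more abundant in the ventricles without overlap (difference -0.50 ± 0.06 SE, adjusted p = 8.7e-05). Pccb read 9.26, 9.39, 9.37 and 9.36 in the atria, against 9.18, 9.28, 9.29 and 9.29 in the ventricles. These pools overlapped, and the difference of 0.09 ± 0.06 did not pass (adjusted p = 0.28).

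The last 2 members are abundant carriers of the inner mitochondrial membrane that serve ATP synthesis. Slc25a3, the phosphate carrier, read 12.33, 12.35, 12.40 and 12.32 in the atria, against 12.58, 12.50, 12.56 and 12.58 in the ventricles, and differed by -0.20 ± 0.06 (SE, adjusted p = 0.015) without overlap. Its call was lost without atrial pools 1 and 4 (adjusted p = 0.071), in a fit with fewer arrays, though atrial pools 2 and 3 lay below every ventricular pool. Slc25a4, the adenine nucleotide translocator of heart and skeletal muscle, read 12.90, 12.98, 13.01 and 12.98 in the atria, against 12.97, 12.98, 12.99 and 13.03 in the ventricles. It overlapped between tissues (difference -0.03 ± 0.06, adjusted p = 0.74).

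**Figure D2:**
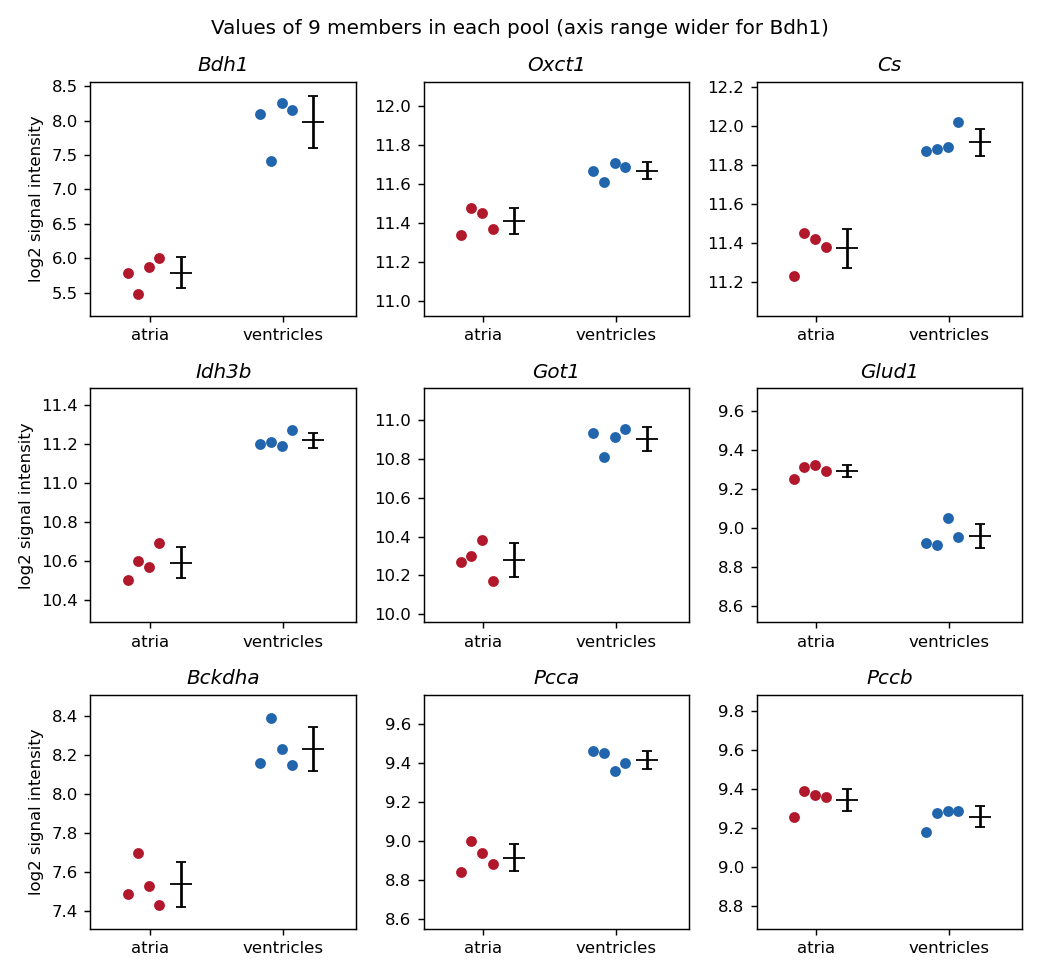
Log2 signal intensity (vertical axes) of 9 members in each pool, atria in red on the left and ventricles in blue on the right; points are pools 1 to 4 from left to right, and the black marks give the mean and SD of 4 pools. The tissues are apart in Bdh1, Oxct1, Cs, Idh3b, Got1, Bckdha and Pcca with atria below, apart in Glud1 with atria above, and overlap in Pccb, and the axis spans a wider range for Bdh1 than for the other 8.

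Partner subunits and isoenzymes were compared within each array, so that a shift common to both genes cancels. The log2 ratio of 2 probe sets is no ratio of transcript numbers, and only its difference between tissues was read. Of 10 pairs compared with a two-sided exact permutation test over the 8 arrays, 6 reached the smallest p that 4 against 4 arrays allow (0.0286), which is 0.0476 after adjustment over the 10 pairs. At that p the arrays of the tissues cannot overlap, so their separation in these 6 pairs is no further support.

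Pcca to Pccb was the subunit pair with the widest shift. Its log2 ratio was -0.42, -0.39, -0.43 and -0.48 in the atria, against 0.28, 0.18, 0.07 and 0.11 in the ventricles, a difference of -0.59 (95% interval -0.71 to -0.47 from the pooled spread, exact permutation p = 0.0286). The ratio of Oxct1 to Bdh1 was 5.56, 6.00, 5.57 and 5.36 in the atria, against 3.56, 4.20, 3.45 and 3.53 in the ventricles, so these consecutive enzymes of ketone use differed unequally by 1.94 (interval 1.40 to 2.47), or 3.83 fold. The ratio of Mdh1 to Mdh2 was 0.75, 0.73, 0.75 and 0.84 in the atria, against 0.50, 0.53, 0.50 and 0.51 in the ventricles, a difference of 0.26 (interval 0.19 to 0.32). Cytosolic over mitochondrial malate dehydrogenase signal was thus higher in the atria, while the same comparison of the aspartate aminotransferases, Got1 to Got2, ran the other way at -0.11 (interval -0.16 to -0.05).

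Bckdha to Bckdhb differed by -0.30 (interval -0.52 to -0.09) and Idh3a to Idh3b by 0.17 (interval 0.08 to 0.27). The remaining 4 pairs overlapped between tissues and did not pass. Their differences were -0.20 for Sucla2 to Suclg2 (interval -0.50 to 0.11, exact permutation p = 0.143), 0.08 for Mccc1 to Mccc2 (-0.12 to 0.29, p = 0.371), -0.07 for Idh3a to Idh3g (-0.22 to 0.09, p = 0.371) and 0.04 for Idh2 to Idh3a (-0.16 to 0.25, p = 0.629). The 10 pairs rest on 8 arrays, and leaving out any array puts the smallest possible p at 0.0571. With all probe sets of a gene averaged, 0 of 10 pairs passed because 4 pairs then held the smallest p (adjusted p = 0.0714, exact permutation test), and the 6 pairs above kept their directions, with p-values of 0.114 for Got1 to Got2 and 0.0571 for Bckdha to Bckdhb.

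**Figure D3:**
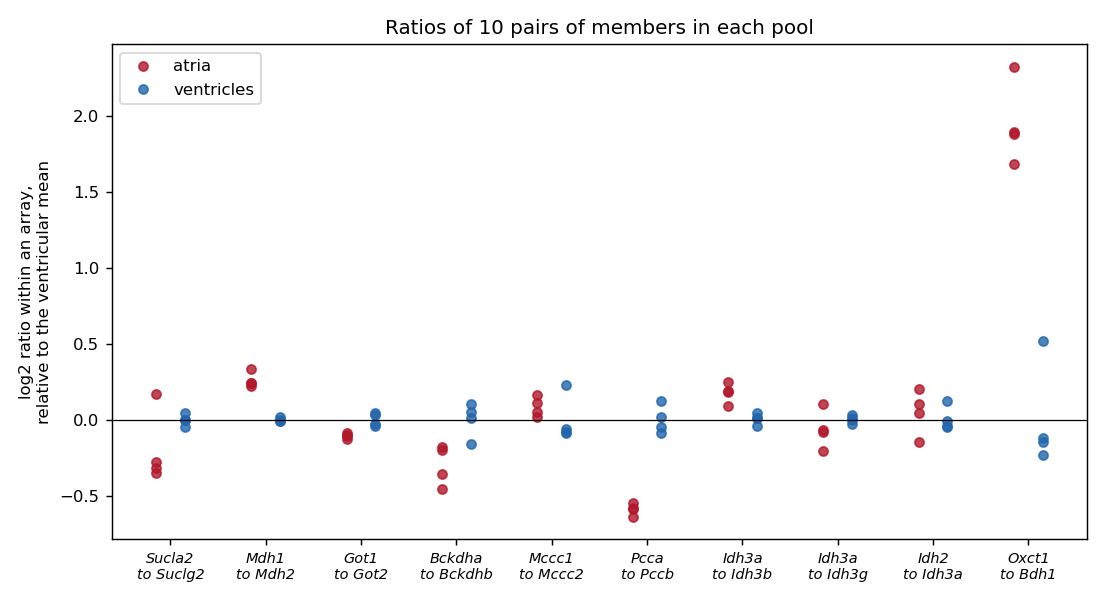
Log2 ratio of 10 pairs of members within each array (vertical axis, relative to the ventricular mean of the pair), with the 4 atrial pools in red left of the 4 ventricular pools in blue. The atrial points of Oxct1 to Bdh1 lie on average 1.94 above the ventricular mean and those of Pcca to Pccb on average 0.59 below it. The tissues overlap in Sucla2 to Suclg2, Mccc1 to Mccc2, Idh3a to Idh3g and Idh2 to Idh3a.

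The atrial pools were not alike in every respect. Myl2, the ventricular regulatory myosin light chain, read 10.48, 4.32, 6.82 and 11.30 in atrial pools 1 to 4, against 13.23, 13.23, 13.30 and 13.28 in the ventricles, and Myl3, the ventricular essential light chain, read 9.93, 8.06, 7.75 and 10.43 in the atria, against 12.96, 12.82, 12.89 and 13.03 in the ventricles. Atrial pools 1 and 4 were thus higher than pools 2 and 3 for both light chains. Of the other ventricular markers, Fhl2 followed the same order (9.12, 8.71, 8.75 and 9.27 in the atria), while Myh7 (6.28, 6.32, 6.27 and 6.68) and Irx4 (3.37, 3.24, 3.53 and 3.92) were highest in pool 4 with pool 1 among the others. Without these 2 pools 22 members were lower in the atria, with 21.8% of all genes, and the median member difference was -0.28. Adipocyte markers differed between the same pools, with medians of 0.81, 2.78, 2.10 and 3.98 above the ventricular mean in atrial pools 1 to 4.

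Member groups also ranked the atrial pools differently. Relative to the ventricular mean of each gene, the citrate cycle members had medians of -0.45, -0.38, -0.36 and -0.32 in atrial pools 1 to 4, and pool 1 was the lowest of the 4 in 9 of 12 genes while pool 4 was the highest in 7. The branched-chain members had medians of -0.31, -0.27, -0.24 and -0.45, and pool 4 was the lowest in 9 of 13 genes. Heart muscle markers had medians of 0.00, -0.01, 0.03 and -0.07 in the same pools, and mesothelial markers 4.39, 3.86, 3.79 and 3.25. Among the atrial pools, pool 4 had the highest adipocyte median and the lowest medians of heart muscle markers and branched-chain members. It also had the highest citrate cycle median, and 15 of 18 fatty acid oxidation genes were highest in it. The fatty acid oxidation medians were -0.94, -0.75, -0.82 and -0.65 in atrial pools 1 to 4. The part of cell type content in the member differences was not tested.

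**Figure D4:**
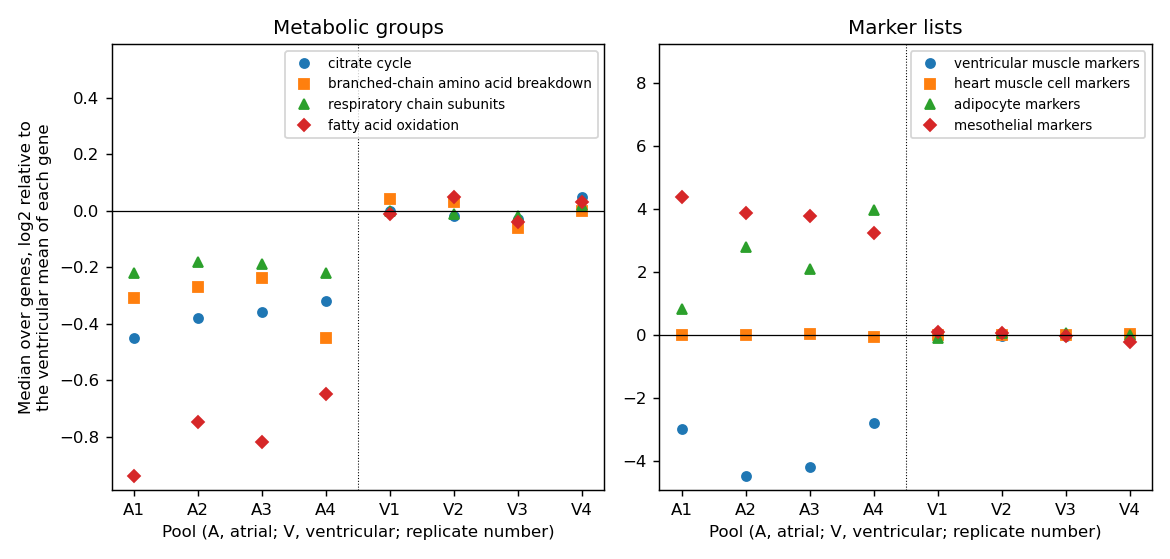
Median log2 signal of gene groups in each pool relative to the ventricular mean of each gene (vertical axes), with atrial pools A1 to A4 left of ventricular pools V1 to V4; the left panel shows metabolic groups and the right panel marker lists, on separate scales. Branched-chain members are lowest in A4 at -0.45 and citrate cycle members in A1 at -0.45. Among the atrial pools, adipocyte markers are lowest in A1 at 0.81 and highest in A4 at 3.98.

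Other genes of these pathways were counted on lists beside the members, against 22.5% of all genes lower and 22.5% higher in the atria. Of 24 further citrate cycle and entry genes 13 were lower and 6 higher in the atria, with a median difference of -0.25. Pdk1, a kinase that inhibits pyruvate dehydrogenase, read 8.49, 8.34, 8.40 and 8.38 in the atria, against 9.78, 9.71, 9.67 and 9.85 in the ventricles (difference -1.35, adjusted p = 1.0e-07). A kinase of the same family, Pdk3, read 5.62, 5.58, 5.50 and 5.46 in the atria, against 4.52, 4.44, 4.10 and 4.24 in the ventricles, and was higher in the atria by 1.22 (adjusted p = 3.0e-06).

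Pyruvate carboxylase, Pc, which makes oxaloacetate, read 6.27, 6.68, 6.33 and 7.14 in the atria, against 5.82, 5.61, 5.56 and 5.65 in the ventricles (difference 0.95, adjusted p = 0.001). ATP citrate lyase, Acly, which turns exported citrate into cytosolic acetyl-CoA, read 7.68, 8.91, 8.27 and 10.01 in the atria, against 7.71, 7.58, 7.55 and 7.77 in the ventricles. Acly overlapped between tissues at atrial pool 1 (difference 1.06, adjusted p = 0.048). For both genes atrial pools 2 and 4 were the highest, the pools in which the adipocyte medians were also highest. The part of adipocytes in these 2 differences was not tested.

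Of 13 further branched-chain genes 5 were lower and 3 higher in the atria, with a median difference of 0.01. By the same rule 22.5% of all genes were lower and 22.5% higher. Acadsb, the acyl-CoA dehydrogenase of the isoleucine route, read 6.36, 6.42, 6.67 and 5.93 in the atria, against 5.14, 5.09, 4.87 and 5.22 in the ventricles, and was 2.4 fold more abundant in the atria (difference 1.26, adjusted p = 4.2e-05). Of 4 further ketone genes 1 was lower and 1 higher, and of 8 further mitochondrial carriers 3 were lower and 1 higher.

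Neighbouring mitochondrial processes were counted in the same way, against 22.5% of all genes lower and 22.5% higher in the atria, and 5.89% past the study's thresholds. Of 37 respiratory chain subunits 22 were lower in the atria and none was higher, with a median difference of -0.21. Of 18 fatty acid oxidation genes 16 were lower and none was higher, with a median of -0.80, or 57.3% of the ventricular level, and 7 of the 18 passed the study's thresholds. Acaa2, the mitochondrial ketoacyl-CoA thiolase, read 9.95, 9.88, 9.99 and 10.50 in the atria, against 11.50, 11.55, 11.16 and 11.56 in the ventricles (difference -1.36, adjusted p = 2.6e-05). The short-chain acyl-CoA dehydrogenase Acads differed by -1.34 (adjusted p = 7.0e-08) and Cpt2, the inner carnitine palmitoyltransferase, by -1.27 (adjusted p = 6.8e-07). Both the median and the share past the study's thresholds were thus larger in size for fatty acid oxidation than for the members, a difference between lists that was described and not tested.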

How the data were processed

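Total RNA of 8 pools was hybridised to Affymetrix rat genome arrays. The authors summarised the scanned intensities by RMA (background adjustment, quantile normalization, summarization), and deposited a log2 signal intensity for each of 31042 probe sets and each array. These values ran from 1.90 to 13.77 with array medians of 4.80 to 4.81 and were used without further scaling. The RMA version is not given in the sources used here. The number of arrays limits the precision.

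The platform annotation gave 1 gene symbol to 20826 probe sets, several genes to 436 and none to 9780. The 14217 genes were each read from their brightest probe set. Differences are atrial mean minus ventricular mean, tested with limma 3.58.1 in R 4.3.3 (lmFit and eBayes) with Benjamini-Hochberg adjustment over 31042 probe sets, with calls made under 0.05. The fit was tested on simulated data. The study used SAM, which was run here as an alternative with all 70 assignments of the arrays. Member pairs were tested by exact permutation in scipy 1.17.1, and promoters came from RefSeq's GRCr8 table. Alternatives were trended and robust eBayes, the replicate number as a block, centring, quantile and cyclic loess normalization, leaving out the dimmest 40% of probe sets, leaving out arrays, other probe set rules and other fold thresholds. Every member was named, with up to 4 genes in each direction from the 6 related lists and Myl2 and Myl3 for the atrial pools. Members, lists and pairs were chosen with earlier results of these data known. P-values measure the spread between pools, not between animals. Levels summed over a list are antilogs of the log2 values, and some genes share a list.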

Additional observations from a re-analysis of the deposited data

Results flagged for a closer look

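Each member and each pair ratio was searched, within the 4 pools of a tissue, for a pool that stood apart from the other 3. The measure was the gap to the nearest pool over the range of all 4, held against Dixon's 95% critical value. Of 92 groups, 8 held such a pool, and chance alone marks about 1 in 20 groups.

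Atrial pool 4 was apart for Bcat2 at 7.61, against 8.02 to 8.08 in the other atrial pools (0.863), and for the ratio of Sucla2 to Suclg2 at 0.95, against 0.43 to 0.50 (0.880). Atrial pool 1 was apart for Idh3g at 10.90, against 10.99 to 11.01 (0.860). Ventricular pool 2 was apart for Dlst at 10.68, against 10.75 to 10.76 (0.882), and for the ratio of Oxct1 to Bdh1 at 4.20, against 3.45 to 3.56 (0.849).

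In the ventricles, pool 4 was apart for Cs at 12.02, against 11.87 to 11.89 (0.869), pool 1 for Pccb at 9.18, against 9.28 to 9.29 (0.845), and pool 3 for the ratio of Mccc1 to Mccc2 at -0.79, against -1.11 to -1.08 (0.906).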

How the results depend on the processing

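Of the 26 called members, 20 kept their call and direction under all 17 alternatives that gave member differences, and 6 did not (Mdh2, Slc25a12, Glud1, Dbt, Aldh6a1 and Slc25a3). The count of lower members was 22 to 27 in limma and 28 with SAM, which also called 32.4% of all genes lower, and the median member difference was -0.28 to -0.35. Leaving out each array in turn gave 23 to 25 lower members, and 22 were lower without atrial pools 1 and 4. With the other probe set of each gene that has several, 0 members were higher, since Glud1 was lost. At a fold of at least 1.5 beside the adjusted p of the study (under 0.0001), 4 members passed, against 8.98% of all genes. At the same adjusted p, 0 passed when limma's treat tested against a fold of 1.8, against 1.12% of all genes. With all probe sets averaged, 0 of 10 pair ratios passed. Signs turned only in members that were not called. Suclg2 was 0.00 after centring, -0.03 after quantile normalization and -0.04 after cyclic loess, and -0.05 to 0.05 over the arrays left out (-0.05 and -0.01 without atrial replicates 2 and 3, -0.01 without ventricular replicate 3), while Acat1 (0.01), Mccc1 (0.00) and Slc25a4 (0.00) turned without atrial replicates 1 and 4. The cause was not tested.

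With the replicate number as a block, 22 members were lower, 1 was higher and 1 passed the study's thresholds, against 20.2% of all genes lower and 4.3% past those thresholds, and Mdh2 (adjusted p = 0.053), Slc25a12 (0.098) and Aldh6a1 (0.073) lost their calls. The deviations of same-numbered pools from their tissue means correlated by 0.134, 0.155, -0.148 and -0.188, so the numbers were not taken to pair the pools. Both tissues came from the same 13 rats, so atrial and ventricular pools may share animals, and the main test treated them as independent. Atrial pools 1 and 2 correlated best with the ventricular pool of their own number, while atrial pool 3 did so with ventricular pool 4 (0.225) and atrial pool 4 with ventricular pool 3 (0.278). Some members that did not pass did so under an alternative. Sucla2 passed with trended and robust eBayes (adjusted p = 0.037), without atrial replicate 4 (0.012), without atrial replicates 1 and 4 (0.045) and with SAM (0.028), and Ivd with trended and robust eBayes (0.033), quantile normalization (0.025), cyclic loess (0.023) and SAM (0.02).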

Other observations

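Transporters were measured beside the members, and the 2 given here were chosen after their values were seen. Slc16a1, a plasma membrane monocarboxylate transporter that also carries ketone bodies, read 9.28, 9.10, 9.11 and 9.35 in the atria, against 10.47, 10.50, 10.29 and 10.47 in the ventricles (difference -1.22, limma adjusted p = 9.0e-07). Slc25a20, the carnitine-acylcarnitine carrier, read 8.77, 8.85, 8.90 and 9.22 in the atria, against 9.85, 9.86, 9.81 and 9.83 in the ventricles (difference -0.90, adjusted p = 2.3e-05). In both genes the tissues did not overlap.

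Succinate dehydrogenase, the citrate cycle enzyme that is also respiratory complex II, was uneven across its subunits. Sdhb, the iron-sulphur subunit, was lower in the atria by -0.54 (adjusted p = 4.6e-05) and Sdha, the flavoprotein, by -0.25 (adjusted p = 0.0093), while the membrane anchors Sdhc (-0.09, adjusted p = 0.22) and Sdhd (-0.12, adjusted p = 0.15) did not pass.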
